A study of Mus musculus with 8 samples.

Results

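Ier2, Ier3, Ier5, Maff, Mafk and Mafg were followed in mouse embryonic fibroblasts before and after serum, in wild-type (WT) cells and in cells without MED23 (Med23-/-, KO). The members were all probe sets whose annotation names 1 of these 6 gene symbols alone. They were 9 of the 22626 probe sets of the array that are not controls: 1 each for Ier2, Ier3, Maff and Mafk, 2 for Mafg and 3 for Ier5. All 9 passed the filter on dim probe sets described with the processing. The cells were taken at embryonic day 11 and passaged through crisis, the stage that most cells of a primary culture do not outlive, and every sample was first held for 16 h in 0.5% serum. Starved cells of each genotype were harvested then, and stimulated cells after a further 30 min in 20% serum. Each of the 4 groups had 2 arrays, 8 in all. The labels do not say whether the 2 arrays of a group came from separate cultures, whether a genotype was 1 clone, or how Med23 was removed.

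Immediate early genes are transcribed within minutes of a growth signal, from factors already present in the cell. Among them, the Ier genes share a name for that timing: Ier2 encodes a small nuclear protein, Ier3 a membrane-linked regulator of cell survival and ERK signalling, and Ier5 a partner of protein phosphatase PP2A that acts on the heat-shock factor HSF1. Maff, Mafk and Mafg encode the small Maf proteins, basic leucine zipper factors that bind DNA but have no activation domain of their own. They act as dimers: with a cap'n'collar partner such as NFE2L2 (Nrf2) they activate antioxidant genes, while with BACH1 or with each other they repress. MED23 is a subunit of Mediator, which links DNA-bound activators to RNA polymerase, and the stated aim was to find genes whose serum response its loss affects.

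Because the small Maf genes encode closely related proteins but moved by different amounts, the 250 bases before each annotated start of Maff, Mafk and Mafg are shown. They come from RefSeq (GRCm38.p6), which held 7 such windows for 5 of the 6 genes. Maff has 3 annotated starts, with windows at chr15:79346371-79346620, chr15:79347270-79347519 and chr15:79348152-79348401 on the plus strand. The Mafk window is chr5:139791286-139791535 on the plus strand and the Mafg window chr11:120633548-120633797 on the minus strand. Capitals mark matches to the motifs named next, other than the GC box.
Maff, start 1: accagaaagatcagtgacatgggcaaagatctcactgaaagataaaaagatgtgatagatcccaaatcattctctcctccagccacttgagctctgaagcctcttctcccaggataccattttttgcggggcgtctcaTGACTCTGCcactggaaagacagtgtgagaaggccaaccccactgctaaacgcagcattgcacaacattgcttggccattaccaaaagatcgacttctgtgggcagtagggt
Maff, start 2: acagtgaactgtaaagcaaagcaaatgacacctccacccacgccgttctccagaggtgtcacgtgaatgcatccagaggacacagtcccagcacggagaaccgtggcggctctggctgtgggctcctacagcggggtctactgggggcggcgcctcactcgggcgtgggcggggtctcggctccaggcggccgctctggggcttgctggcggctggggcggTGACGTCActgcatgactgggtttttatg
Maff, start 3: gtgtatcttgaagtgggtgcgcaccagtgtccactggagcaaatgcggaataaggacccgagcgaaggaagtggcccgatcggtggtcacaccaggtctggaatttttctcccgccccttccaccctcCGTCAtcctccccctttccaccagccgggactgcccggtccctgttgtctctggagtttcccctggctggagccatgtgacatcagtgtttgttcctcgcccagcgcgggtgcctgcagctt
Mafk: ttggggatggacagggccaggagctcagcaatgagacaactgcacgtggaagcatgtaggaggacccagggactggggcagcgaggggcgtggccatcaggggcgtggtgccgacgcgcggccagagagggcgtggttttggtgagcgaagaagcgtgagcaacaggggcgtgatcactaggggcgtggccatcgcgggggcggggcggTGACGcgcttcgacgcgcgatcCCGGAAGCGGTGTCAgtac
Mafg: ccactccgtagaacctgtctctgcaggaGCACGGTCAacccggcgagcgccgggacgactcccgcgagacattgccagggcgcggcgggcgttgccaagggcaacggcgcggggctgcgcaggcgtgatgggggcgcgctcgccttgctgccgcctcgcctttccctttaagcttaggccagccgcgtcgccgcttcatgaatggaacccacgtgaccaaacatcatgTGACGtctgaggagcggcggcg

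Both strands were searched for the cAMP response element (CRE, TGACGTCA), its core (TGACG, which also matches inside a whole CRE), AP-1 (TGANTCA), the ETS core (CCGGAA), the antioxidant response element core (TGACNNNGC), TATAAA, the GC box (GGGCGG) and the CArG box that SRF binds. The second Maff start had a whole CRE 29 to 22 bases before it, a motif found in 1.55% of 32851 windows of this length. The CRE core was found before the last 2 Maff starts and before those of Mafk and Mafg, against 17.8% of all windows. The ETS core was found before Mafk (12% of all windows), and the antioxidant core before the first Maff start, Mafk and Mafg (10.2%). The windows of Ier3 (chr17:35821463-35821712, plus strand) and Ier5 (chr1:155099637-155099886, minus strand) held GC boxes (32.7% of all windows) and none of the other motifs. GC boxes were also found before the last 2 Maff starts and before Mafk. No window of the 5 genes held the CArG box (1.47%), AP-1 (6.75%) or TATAAA (12.4%) in these letters. The arrays do not show which Maff start was used, and a match is a description of letters, not a bound site.

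**Figure D1:**
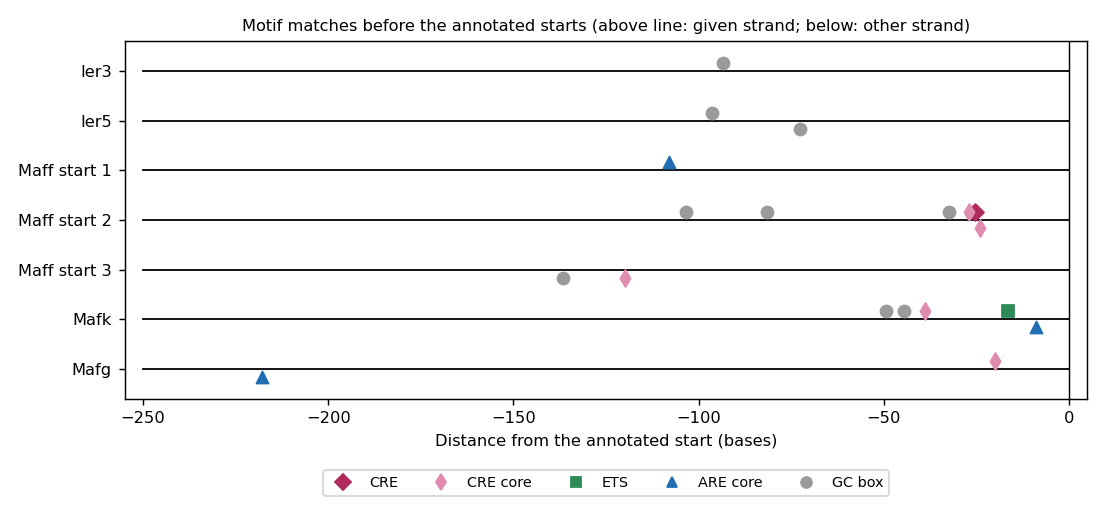
Position of each motif match in the 250 bases before the annotated starts, as distance from the start in bases. Marks above a line are on the gene's strand and marks below on the other; the whole CRE lies before the second Maff start only.

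Median signals lay between 765.6 and 924.4, and were lowest on the stimulated knockout arrays (765.6 and 805.2). Replicate arrays correlated across tested probe sets at r between 0.976 and 0.984. Med23 read 4901, 5410, 3595 and 3577 on the wild-type arrays and 28 to 132.5 on the knockout arrays, a fall that fits the genotype labels; whether this probe set lies in the deleted part is not given. Fibroblast markers were present: 9 of 12, among them Col1a1, Col1a2, Vim and Pdgfrb, lay at or above the 40th percentile on all 8 arrays, and Thy1 lay below it on all 8. Their summed signal was 210638 to 235345 in wild-type and 358586 to 417153 in knockout cells when starved, and 213681 to 230125 and 330499 to 344382 after serum. By adjusted p, 8 of the 11 tested markers were higher and 1 lower in starved knockout cells, against 22.8% and 24.8% of all tested probe sets. After serum 7 were higher and 1 lower, against 22.7% and 27.5%. For Col1a2 the starved mean went from 4726 in wild-type to 80479 in knockout cells (SE of the log2 difference 1.19). For Col3a1 it went from 10713 to 50464. Fn1 and Sparc did not pass, Dcn was lower in the knockout by -1.13 ± 0.264 (adjusted p = 0.00548), and Pdgfra was dim in wild-type cells, at 127 against 13467. Of the epithelial, endothelial and muscle markers 0 of 6, 0 of 4 and 0 of 3 lay at or above that percentile on all 8 arrays, and of 5 macrophage and blood markers Csf1r alone did. In bulk RNA, fewer cells of a kind and less RNA per cell cannot be told apart, and the part that the fibroblast marker difference has in the genotype differences below was not tested.

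Serum raised these genes in wild-type cells. Of the 9 probe sets 8 rose, none fell and 1, for Mafg, did not pass, where 2.44% of all 14947 tested probe sets rose and 1.70% fell. The median log2 change of the 9 was 1.75, against -0.05 over all tested probe sets. By the fold over 2 that the study names, with no overlap of arrays, 7 of the 9 were up, against 1.77% of those tested. Changes are given on the scale of log2(signal + 16) with the standard error (SE) from limma, and adjusted p is limma's with Benjamini-Hochberg adjustment.

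Among the Ier genes, Ier2 read 3933 and 4423 on the starved wild-type arrays and 22440 and 26230 after serum. The groups lay far apart, with a log2 change of 2.54 ± 0.121 (SE, adjusted p = 1.26e-06), or 5.8-fold. Ier3, the survival and ERK regulator, read 4055 and 4362 in starved and 29190 and 24620 in stimulated wild-type cells. It had the highest change of the 9 in this genotype, at 2.67 ± 0.119 (adjusted p = 8.02e-07), the 43rd highest of all tested probe sets. Ier5 was read by 3 probe sets that agreed in direction and differed in size. Its brightest, 1417612_at, read 6501 and 8056 and then 25190 and 22780, a change of 1.72 ± 0.122 (adjusted p = 1.91e-05). Probe set 1417613_at went from 1533 and 1873 to 7356 and 7962, a change of 2.16 ± 0.150 (adjusted p = 1.65e-05). The dimmest, 1460009_at, went from 677.1 and 994.4 to 2042 and 1772, a change of 1.20 ± 0.223 (adjusted p = 0.0137). That call was lost without starved array 1 (adjusted p = 0.104), stimulated array 1 (0.112) or stimulated array 2 (0.0507) of the wild type.

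The small Maf genes spread widely in wild-type cells. Maff read 1352 and 1551 in starved and 9463 and 7543 in stimulated cells, a log2 change of 2.53 ± 0.183 (adjusted p = 2.19e-05), which is 5.78-fold and the size of the Ier2 change. Mafk read 1677 and 2596 and then 7760 and 6418, a change of 1.75 ± 0.194 (adjusted p = 0.000547), or 3.36-fold. The ratio of the 2 starved wild-type arrays was wider here than for any other member, and the stimulated arrays still lay well above both. Mafg moved least. Its probe set 1434054_at went from 2001 and 2087 to 3264 and 3946, a change of 0.81 ± 0.151 (adjusted p = 0.0140). The brighter Mafg probe set, 1448916_at, went from 3394 and 3661 to 4702 and 4626, a change of 0.40 ± 0.128 that did not pass (adjusted p = 0.126, 95% interval 0.12 to 0.69), although the groups did not overlap. The Mafg call at 1434054_at was lost without starved array 1 (adjusted p = 0.0966), starved array 2 (0.0726) or stimulated array 2 (0.107) of the wild type.

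**Figure D2:**
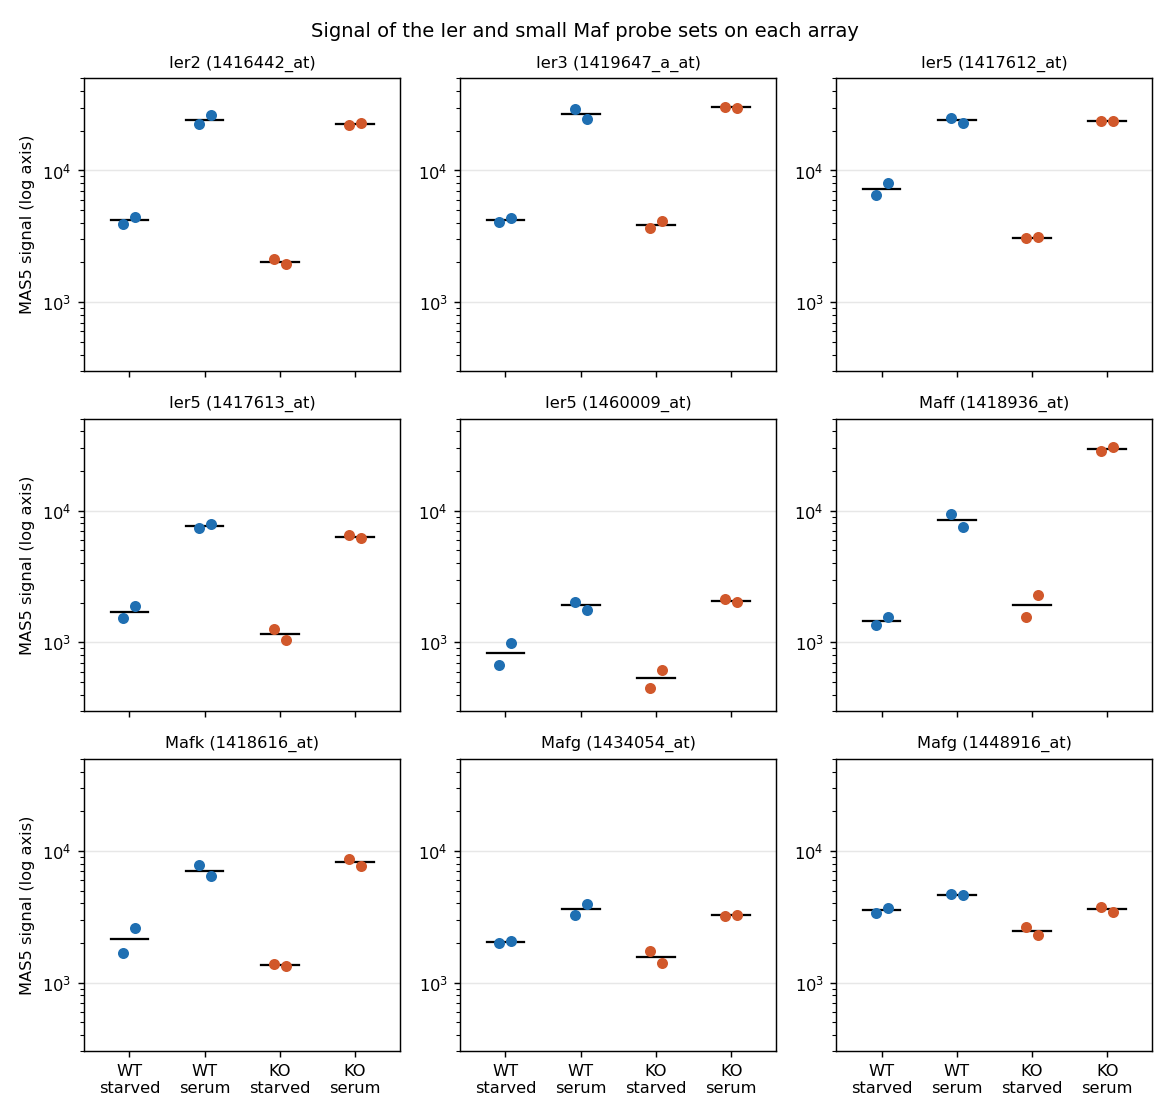
MAS5 signal (log axis) of the 9 probe sets on each of the 8 arrays; points are arrays, black lines are the means of 2 arrays, blue is wild type and orange knockout. For Maff, stimulated knockout cells, at 28630 and 30540, stand far above stimulated wild-type cells, at 9463 and 7543; Ier3 shows a smaller gap that did not pass.

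In knockout cells all 9 probe sets rose. Over all tested probe sets 9.33% rose and 13.8% fell, or 13.1% and 6.64% after centring each array on its median. The median log2 change of the 9 was 2.57, against -0.13 over all tested, and 8 of the 9 passed the fold over 2 with no overlap (3.75% of those tested). Maff led with 3.96 ± 0.183 (adjusted p = 3.61e-07), a 15.6-fold rise from 1559 and 2274 to 28630 and 30540, and the 31st highest change of all tested probe sets. The stimulated knockout arrays thus stood above every other array for this gene. Ier2 rose by 3.45 ± 0.121 (adjusted p = 5.79e-08), 11-fold, from 2125 and 1937 to 22020 and 22740. Ier3 rose by 2.96 ± 0.119 (adjusted p = 1.73e-07), from 3625 and 4123 to 30530 and 29780.

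The 3 Ier5 probe sets again rose together in knockout cells. At 1417612_at the starved arrays read 3062 and 3116 and the stimulated arrays 23570 and 23800, a rise of 2.93 ± 0.122 (adjusted p = 2.01e-07). Changes at 1417613_at and 1460009_at were 2.45 ± 0.150 (adjusted p = 3.37e-06) and 1.94 ± 0.223 (adjusted p = 0.00026). In 1417613_at the signal went from 1263 and 1036 to 6504 and 6171, and in 1460009_at from 449.3 and 614.3 to 2122 and 2017. Mafk went from 1384 and 1347 to 8733 and 7703, a change of 2.57 ± 0.194 (adjusted p = 1.67e-05). Mafg rose at both probe sets and once more by less than the other members. At 1434054_at it went from 1733 and 1419 to 3231 and 3258, a change of 1.04 ± 0.151 (adjusted p = 0.00117). At 1448916_at it went from 2645 and 2285 to 3751 and 3455, a change of 0.55 ± 0.128 (adjusted p = 0.0134), a call lost without starved array 2 (adjusted p = 0.0634) or stimulated array 1 (0.101) of the knockout.

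**Figure D3:**
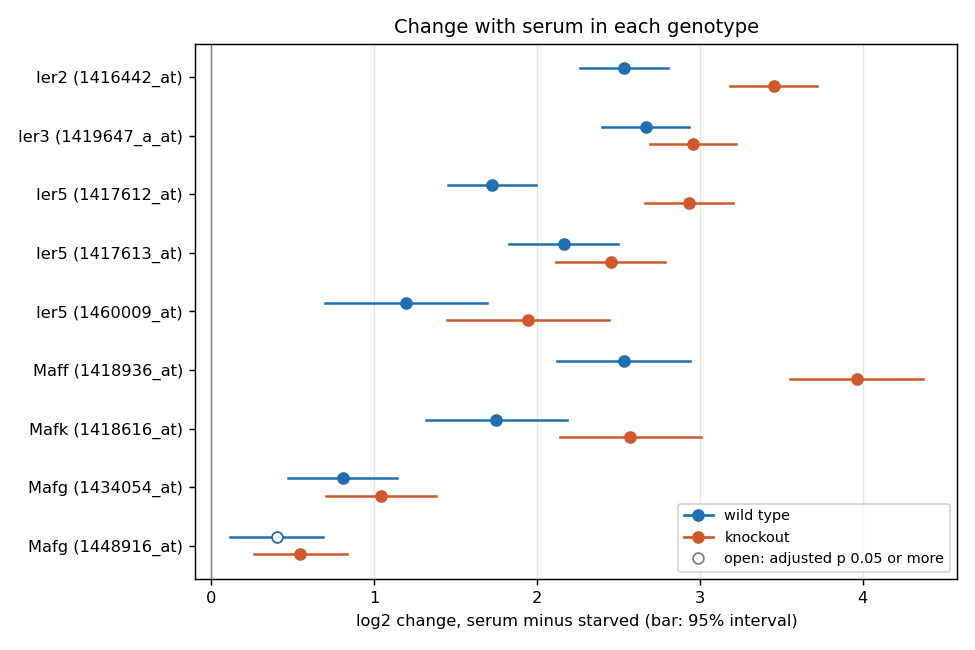
log2 change with serum for each probe set, in wild-type (blue) and knockout (orange) cells, with 95% intervals from limma; 2 arrays per group, open points did not pass. The knockout point lies to the right of the wild-type point for all 9, and the gap is widest for Maff.

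Whether the response differed between the genotypes was tested as an interaction. Maff, Ier2 and 1 of 3 Ier5 probe sets responded more in knockout cells. That is 3 of 9 higher and none lower, with single-array responses apart for 6 of 9 (14.5% of all tested apart in that direction), where 1.61% of all tested probe sets were higher and 1.08% lower, or 2.36% and 0.723% after median centring. Centring moved the median of all tested probe sets by 0.12 in this comparison, and by 0.16 in the knockout serum response and 0.16 between the genotypes after serum. The difference was 1.43 ± 0.258 for Maff (adjusted p = 0.0207), 0.92 ± 0.171 for Ier2 (adjusted p = 0.0230) and 1.21 ± 0.172 for Ier5 at 1417612_at (adjusted p = 0.00572). The other Ier5 probe sets gave 0.29 (adjusted p = 0.503, 95% interval -0.18 to 0.76) and 0.75 (adjusted p = 0.237, 0.05 to 1.45), so a larger Ier5 response rests on 1 probe set.

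The other members were not shown to differ in response, although the interval for Mafk lay above 0. Mafk had a difference of 0.82 ± 0.274 (adjusted p = 0.151, 95% interval 0.21 to 1.43), which passed without starved wild-type array 1 (1.14, adjusted p = 0.0484). Ier3 had 0.29 ± 0.169 (adjusted p = 0.388, -0.08 to 0.67). The Mafg probe sets had 0.23 (adjusted p = 0.600, -0.24 to 0.71) and 0.14 (adjusted p = 0.716, -0.26 to 0.55). Of the 3 calls, Ier5 at 1417612_at passed under every alternative run for it, with adjusted p at most 0.0420. The Maff call was lost without starved wild-type array 2 (adjusted p = 0.0700), stimulated wild-type array 2 (0.0792) or stimulated knockout array 1 (0.0821) or 2 (0.0829), and without the mean-variance trend (0.0699). The Ier2 call was lost without starved wild-type array 2 (adjusted p = 0.0754), stimulated wild-type array 1 (0.0809), starved knockout array 2 (0.0523) or stimulated knockout array 1 (0.0961) or 2 (0.0947). It was also lost after quantile normalization (0.0615) and without the trend (0.0764). Only 1 of 9 passed without starved wild-type array 2 or without either stimulated knockout array, while the Maff difference itself ranged from 1.16 to 1.70 and that of Ier2 from 0.73 to 1.04 over the alternatives.

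The 3 larger responses had different shapes, seen in the levels on either side of the stimulus. For Ier2 and Ier5 the genotypes differed in starved cells and not detectably after serum; for Maff they differed after serum. Starved knockout cells held less Ier2 than starved wild-type cells, at 2125 and 1937 against 3933 and 4423, a log2 difference of -1.03 ± 0.121 (adjusted p = 7.83e-05). After serum the Ier2 signals of 22020 and 22740 against 22440 and 26230 overlapped, with a difference of -0.12 (adjusted p = 0.447, 95% interval -0.39 to 0.15). Ier5 at 1417612_at was likewise lower in starved knockout cells, by -1.22 ± 0.122 (adjusted p = 2.62e-05), and at -0.02 after serum (adjusted p = 0.922, -0.29 to 0.25). The interaction is the second difference minus the first and so adds no further evidence to them. These differences after serum changed sign after median centring, to 0.05 for Ier2 and 0.15 for Ier5, neither of which passed.

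Maff stood the other way round. Its starved signals were 1559 and 2274 in knockout and 1352 and 1551 in wild-type cells, close together and not overlapping, with a difference of 0.38 ± 0.183, which did not pass (adjusted p = 0.117). That difference passed without starved knockout array 1 (0.65, adjusted p = 0.0126) and was 0.105 without starved knockout array 2 (adjusted p = 0.650). After serum Maff was 3.5-fold higher in knockout cells, by 1.81 ± 0.183 (adjusted p = 2.96e-05), and it passed under every alternative run, at 1.64 to 1.97. It was the 497th highest difference of 14947, since genotype differences were common: 22.7% of tested probe sets were higher and 27.5% lower in stimulated knockout cells, or 29.9% and 20.6% after median centring.

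In starved cells 6 of the 9 probe sets were lower in the knockout and none was higher, against 24.8% lower and 22.8% higher over all tested. They were Ier2, the 3 of Ier5, Mafk and Mafg at 1448916_at. The median over the 9 was -0.56, against -0.01 over all tested. Mafk was lower by -0.61 ± 0.194 (adjusted p = 0.0261), with signals of 1384 and 1347 below the 1677 and 2596 of wild-type cells. Mafg at 1448916_at was lower by -0.52 ± 0.128 (adjusted p = 0.00766), and at 1434054_at by -0.38 ± 0.151, which did not pass (adjusted p = 0.0623) but did without starved knockout array 1 (adjusted p = 0.0306). Ier3 did not part the genotypes when starved, at -0.12 ± 0.119 (adjusted p = 0.434, 95% interval -0.39 to 0.14), and its arrays overlapped.

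The smaller of these differences depended on single arrays. Without starved wild-type array 2 only Ier2 and Ier5 at 1417612_at still passed, 2 of 9. Those lost were Ier5 at 1417613_at (adjusted p = 0.0921) and 1460009_at (0.282), Mafk (0.221) and Mafg at 1448916_at (0.0539). Mafk, at -0.29 without that array, was also lost without either starved knockout array (adjusted p = 0.0659 and 0.0869), and Ier5 at 1417613_at without starved knockout array 2 (0.0679). Ier5 at 1460009_at passed narrowly, at -0.63 ± 0.223 (adjusted p = 0.0403), and was lost in 10 of 18 alternatives.

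After serum 1 of 9 was higher in the knockout, Maff, and 1 lower, Mafg at 1448916_at, a share below that of all tested probe sets, of which 50.2% differed. Mafg at 1448916_at read 3751 and 3455 against 4702 and 4626, a difference of -0.37 ± 0.128 (adjusted p = 0.0341). The call was lost without each stimulated array in turn (wild-type array 1, adjusted p = 0.116, and 2, 0.0965; knockout array 1, 0.0737, and 2, 0.171), and after quantile normalization (0.0722) or median centring (0.252). At 1434054_at the difference was -0.14 (adjusted p = 0.452). Ier3 arrays did not overlap after serum, at 30530 and 29780 against 29190 and 24620, yet the difference of 0.17 did not pass (adjusted p = 0.262, 95% interval -0.10 to 0.44). Mafk gave 0.22 (adjusted p = 0.379, -0.22 to 0.65), and Ier5 gave -0.27 (adjusted p = 0.156) and 0.12 (adjusted p = 0.679) at its dimmer probe sets.

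**Figure D4:**
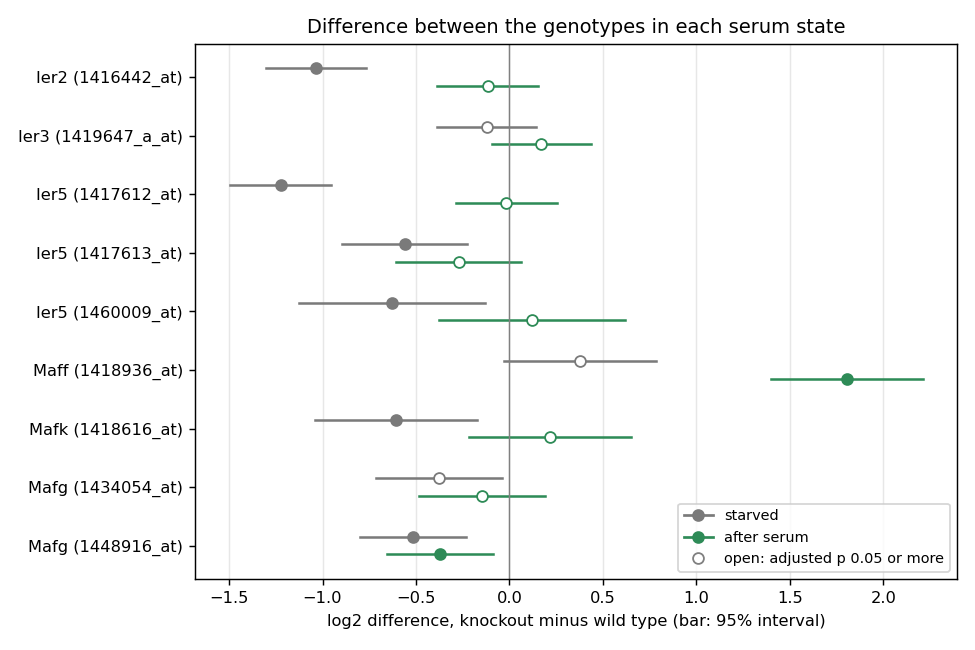
log2 difference, knockout minus wild type, for each probe set in starved cells (grey) and after serum (green), with 95% intervals from limma; 2 arrays per group, open points did not pass. Ier2 and Ier5 at 1417612_at lie left of 0 when starved and near 0 after serum, while Maff lies at 1.81 after serum.

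The order of the 4 groups was starved below stimulated for every probe set, with 1 overlap: at Mafg 1448916_at, stimulated knockout cells (3455 and 3751) overlapped starved wild-type cells (3394 and 3661). Ier2, the 3 Ier5 probe sets, Mafk and Mafg had starved knockout cells lowest and starved wild-type cells next. Ier3 had the same order at the bottom, though its starved groups overlapped. How many of all tested probe sets had this order was not counted. Maff alone had starved wild-type cells lowest. At the top, the stimulated groups overlapped for Ier2, Mafk and 2 of the Ier5 probe sets.

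The genes with the most similar pattern were found as those with the smallest root mean square difference of log2 signal over the 8 arrays, each centred on its own mean, among 13796 to 13798 probe sets. Nearest to Ier2 were Ifrd1 (0.25), the repressor Klf10 (0.26) and the AP-1 subunit Junb (0.31). Nearest to Ier3 was the zinc finger factor Egr3 (0.28), followed by Ifrd1 (0.36) and Ier5 at 1417613_at (0.37). Ier5 lay closest to Pmaip1, which encodes the pro-apoptotic protein NOXA (0.11), then to the NF-kB subunit Rel (0.15) and Klf9 (0.20). Mafk lay closest to the chaperone gene Dnajb1 (0.20), Ier5 at 1417613_at (0.24) and Tubb6 (0.26). Mafg, which moved little, was closest to Pafah1b1 (0.07), Pygo2 (0.08) and Casc3 (0.09). Maff had no gene as near: the closest were the phosphatase gene Dusp2 (0.41), Btg2 (0.47) and Zfp36 (0.52). With 8 arrays these distances describe the libraries and carry no test.

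Other immediate early genes gave a frame for these values. All 14 listed, from Fos and Egr1 to Myc and Srf, rose in both genotypes. Over all tested probe sets 2.44% rose in wild-type and 9.33% in knockout cells. The median log2 changes of the 14 were 2.97 in wild-type and 4.55 in knockout cells. For the 6 member genes, by their brightest probe sets, they were 2.14 and 2.95. In the interaction 7 of the 14 responded more in knockout cells and none less (4 without stimulated knockout array 1), as did 3 of the 6 member genes. Over all tested probe sets 1.61% responded more and 1.08% less. Among the 14, the largest differences in response were larger than any of the members': 5.54 ± 0.198 for Jun (adjusted p = 1.06e-06), 4.38 ± 0.746 for Atf3 (adjusted p = 0.0160), 2.07 ± 0.247 for Dusp1 (adjusted p = 0.00300) and 2.01 ± 0.221 for Egr1 (adjusted p = 0.00201). These 4 were lower in starved knockout cells, as was Junb, while Srf, Fos and Fosb were higher there, by 1.13 ± 0.128 (adjusted p = 6.6e-05), 0.94 ± 0.168 (adjusted p = 0.00115) and 0.69 ± 0.157 (adjusted p = 0.00473). That is 5 of 14 lower and 3 higher, where 24.8% of all tested were lower and 22.8% higher. The share that differed when starved thus lay near that of all tested. After serum 7 of the 14 were higher in knockout cells and none lower, against 22.7% higher and 27.5% lower over all tested. Like Maff, Zfp36, which encodes an mRNA decay factor, was higher in knockout cells after serum and did not pass when starved. Against the sign for Maff, Zfp36 read slightly lower in starved knockout cells. Its mean signal was 2408 in wild-type and 1979 in knockout cells when starved (difference -0.29, adjusted p = 0.0947), and 21096 and 40620 after serum (difference 0.94 ± 0.133, adjusted p = 0.000259). Junb resembled Ier2: its mean was 3570 and 1532 when starved (difference -1.22 ± 0.172, adjusted p = 0.00027), and 25398 and 26038 after serum (difference 0.03, adjusted p = 0.893). Junb is among the nearest patterns of Ier2, at a distance of 0.31. Zfp36 is among those of Maff, at the wider distance of 0.52. Both distances come from the same signals as these means and add no further evidence. Dusp2, the nearest to Maff, rose by 3.40 in wild-type and 3.37 in knockout cells, without the larger knockout response.

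The partners of the small Mafs moved less. Of 6 listed, 4 were tested; Nfe2 and Nfe2l3 were too dim. Bach1, a repressing partner, rose by 0.66 ± 0.134 in wild-type (adjusted p = 0.0205) and 0.64 ± 0.134 in knockout cells (adjusted p = 0.00757). The wild-type call on Bach1 was lost without any one of the 4 wild-type arrays, or without the trend. The knockout call was lost without stimulated knockout array 1. Nfe2l2 (Nrf2), an activating partner, changed by 0.09 (adjusted p = 0.814) and 0.07 (adjusted p = 0.774). Nfe2l1 and Bach2 differed by genotype: Nfe2l1 was lower in knockout cells by -0.92 ± 0.117 when starved (adjusted p = 0.000144) and -1.25 ± 0.117 after serum (adjusted p = 1.8e-05), and Bach2 by -1.08 ± 0.249 (adjusted p = 0.00506) and -1.76 ± 0.249 (adjusted p = 0.000262). In each state 2 of the 4 tested partners were lower and 0 higher. Over all tested probe sets 24.8% were lower and 22.8% higher when starved, and 27.5% and 22.7% after serum. The share that differed thus lay near that of all tested. By limma 0 of the 4 passed in the interaction, and 0 had an unadjusted p under 0.05. The median interaction of the 4 was -0.18, against -0.06 over all tested.

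Among the listed relatives of the members, Ier5l was tested, while Maf and Nrl were too dim. Ier5l, a relative of Ier5, rose by 1.17 ± 0.265 in wild-type cells (adjusted p = 0.0366). Its mean went from 3377 to 7574. This call was lost without any one of the 4 wild-type arrays, without the trend or without the filter on dim probe sets. In knockout cells its change of 0.64 did not pass (adjusted p = 0.111), but did without starved knockout array 1, and the interaction of -0.53 did not pass (adjusted p = 0.480).

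Genes that the Nrf2 and small Maf dimer is known to activate were counted next. Of 16 listed, 12 were tested. In wild-type cells 1 rose and none fell, against 2.44% and 1.70% of all tested, with a median of 0.09 against -0.05. In knockout cells 3 rose and none fell, against 9.33% and 13.8%, with a median of -0.08 against -0.13. Hmox1, which encodes haem oxygenase and is also repressed by BACH1, rose by 1.64 ± 0.306 in wild-type (adjusted p = 0.0140) and 2.49 ± 0.306 in knockout cells (adjusted p = 0.000415). The wild-type call was lost without starved wild-type array 2 or without the trend. Txnrd1, a thioredoxin reductase, rose by 1.41 ± 0.141 in knockout cells (adjusted p = 0.000109) and changed by 0.25 in wild-type cells (adjusted p = 0.404). Its interaction of 1.16 ± 0.199 was the 1 in this list to pass (adjusted p = 0.0165), and 2 passed without stimulated wild-type array 1. The Txnrd1 call was lost without the trend, and with any one of 4 other arrays left out. These were the first starved and the second stimulated array of the wild type, and each stimulated array of the knockout. Gclm, a subunit of the enzyme that starts glutathione synthesis, rose by 0.73 ± 0.149 in knockout cells (adjusted p = 0.00722).

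Between the genotypes this list was mostly lower in starved knockout cells, with 7 of 12 lower and 2 higher, against 24.8% and 22.8% of all tested. Glutathione reductase, Gsr, was lower by -1.04 ± 0.132 (adjusted p = 0.00014) and Gclm by -1.23 ± 0.149 (adjusted p = 0.000105), while the glutathione transferase Gstm1 was higher by 1.36 ± 0.161 (adjusted p = 8.58e-05). After serum 6 were lower and 2 higher, against 27.5% and 22.7% of all tested. That count was 3 lower and 2 higher without stimulated wild-type array 1, and 3 lower and 1 higher without stimulated knockout array 1.

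HSF1-linked chaperone genes, the setting in which Ier5 is known, gave 1 rise among 8 tested in wild-type cells, where 2.44% of all tested probe sets rose. In knockout cells there were 6 rises and 1 fall, against 9.33% and 13.8% of all tested. Dnajb1 rose in both, by 1.91 ± 0.137 (adjusted p = 2.18e-05) and 2.50 ± 0.137 (adjusted p = 1.43e-06). Hspa1a and Hspa1b, near-identical genes whose probe sets may share signal, changed by 0.37 (adjusted p = 0.323) and 0.56 (adjusted p = 0.143) in wild-type cells and rose by 1.61 ± 0.184 (adjusted p = 0.000246) and 1.51 ± 0.186 (adjusted p = 0.000413) in knockout cells. Hspa1a passed in the interaction at 1.24 ± 0.260 (adjusted p = 0.0375). That call was lost with any single wild-type array or any single stimulated knockout array left out, without the trend or without the filter. The count there rose to 2 of 8 after median centring, and also rose without starved knockout array 2. Hsf1 itself was not named alone by a probe set. After serum 4 of the 8 were higher and 1 lower in knockout cells, and 2 higher and 1 lower without any one stimulated array. Over all tested probe sets 22.7% were higher and 27.5% lower, so the share that differed lay near that of all tested.

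**Figure D5:**
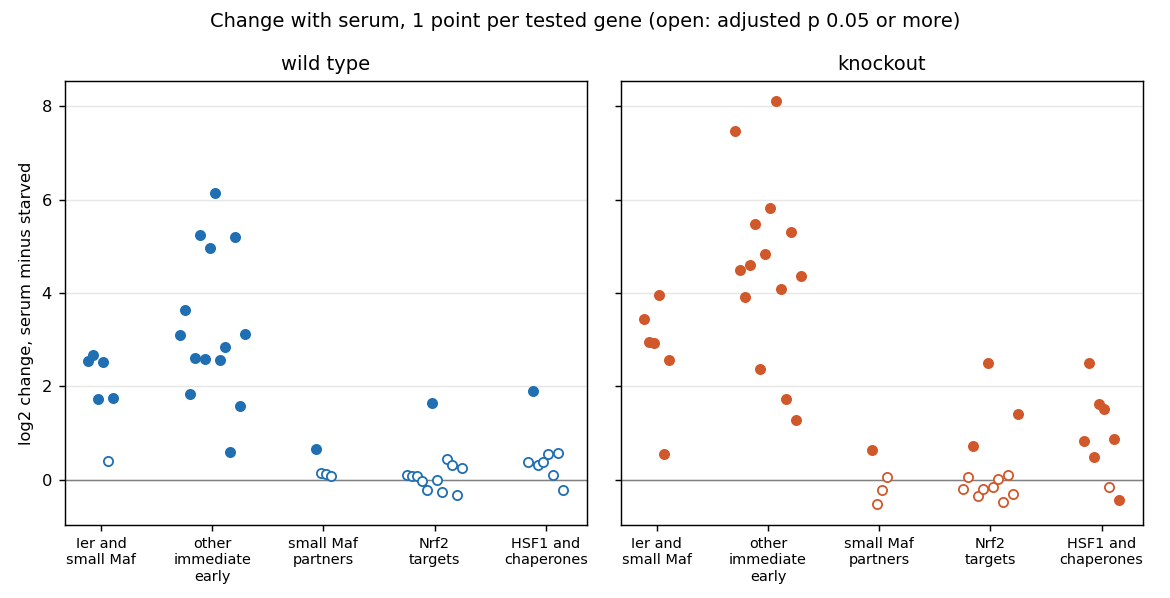
log2 change with serum in wild-type (left) and knockout (right) cells, 1 point per tested gene by its brightest probe set; open points did not pass. All 14 other immediate early genes rose in both, while 1 of 4 small Maf partners (Bach1) and 1 of 12 Nrf2 targets (Hmox1) rose in wild-type cells.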

How the data were processed

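Total RNA from 8 fibroblast samples was labelled with biotin and run on 1 array each. The authors deposited 1 linear intensity for each probe set and array. Per the submitters' processing notes the software was MAS5, version not given. MAS5 takes off the signal of mismatch probes, which adds noise at the dim end. Trimmed means, with 2% left out at both ends, lay between 2500.6 and 2500.8 on all arrays. The number of arrays limits the precision.

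Of 22690 probe sets, 64 controls were left out, and 14947 (66.1%) at or above the array's 40th percentile on at least 2 arrays were tested. Of those not controls, the annotation table (old for some symbols) names 1 gene for 20380 probe sets, several for 691 and none for 1555. log2(signal + 16) was fitted with limma 3.58.1 (R 4.3.3) over all 8 arrays with group means and eBayes with a trend, two-sided, with Benjamini-Hochberg adjustment over all tested probe sets and a call at adjusted p under 0.05. The spread had 4 residual and 6.07 prior degrees of freedom. An exact two-sided permutation test of 2 arrays against 2 cannot go below 0.333, so calls rest on spread pooled over groups and probe sets, and that spread may be technical. Genes in lists were represented by their brightest probe set. Named were all member probe sets, up to 3 genes of each list with the smallest p in each comparison, the 3 nearest patterns per member, and Med23. The members and lists were chosen with earlier results of these data known. Figures used matplotlib 3.10.9.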

Additional observations from a re-analysis of the deposited data

Results flagged for a closer look

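For 3 of the 9 probe sets the serum response differed between the genotypes by limma's interaction term, each larger in knockout cells. The difference in log2 change was 0.92 for Ier2 (1416442_at), 1.21 for Ier5 (1417612_at) and 1.43 for Maff (1418936_at). Every combination of single arrays gave a larger response in the knockout for these 3 probe sets, as it did for 3 others that did not pass. Over all tested probe sets 14.5% had responses apart in this direction. With 2 arrays a group no single array could be tested as standing apart.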

How the results depend on the processing

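Among the recomputed log2 changes of single member probe sets, 750 kept their direction and their side of the threshold, 44 lost a call, 3 gained one and 4 changed sign. The sign changes were all between the genotypes after serum and none was called: with median centring, Ier2 was at 0.05 (0.0461), Ier5 at 1417612_at at 0.15 (0.1464) and Mafg at 1434054_at at 0.02 (0.018), and Ier5 at 1417612_at ran from -0.089 to 0.0562 with each array left out, the latter without stimulated wild-type array 1. The counts of called probe sets out of 9 stayed within 1.5 times under the 3 other pseudocounts and the other filters (none, or the 60th percentile). Between the genotypes after serum the count of 2 was 1 after quantile normalization, 1 after median centring and 1 when called by a fold above 2 and arrays apart. In starved cells the count of 6 was 2 when called that way. The interaction count of 3 was 1 without the trend. Leaving out each array in turn gave 6 to 8 for serum in wild type, 8 to 9 for serum in knockout, 1 to 4 for the interaction, 2 to 6 for starved and 1 to 2 for stimulated cells between genotypes; the lone array left in a group was assumed to vary like the others. With the set number as a replicate block the counts were 8, 9, 3, 6 and 2, as without it. The labels do not pair the sets, and the differences of set 1 and set 2 correlated between groups at -0.03 to 0.21. Recomputing the list counts under these same settings was added after seeing the data. Median centring moved every difference between the genotypes after serum by the same amount, 0.16. The sign changes under centring are that shift. Why calls moved was otherwise not tested, nor was the sign change with an array left out. Dim probe sets, such as Ier5 1460009_at, have the widest errors here.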
